A study of Mus musculus with 3 samples.

Results

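Steap4 and 9 further genes of cellular iron and zinc handling were followed in adult mouse ventricular cardiomyocytes (ACMs) exposed to cytokines. The genes were picked by symbol, and all 10 were present among the 56748 genes of the count table. They are the metalloreductases Steap4, Steap3 and Steap2, the uptake genes Tfrc, Slc11a2 and Slc39a14, the ferritin chains Fth1 and Ftl1, the iron exporter Slc40a1, and Hamp, which encodes the hormone hepcidin. ACMs came from hearts of wild-type mice aged 8 to 10 weeks, both males and females. The cells were cultured for 16 h in serum-free medium with 0.1% BSA, either as vehicle control, with 10 ng/mL mouse oncostatin M (OSM), or with 10 ng/mL human interleukin 6 (IL-6). All 3 cultures also received a supplement of insulin, transferrin and selenium, so every condition was supplied with the iron carrier that the receptor encoded by Tfrc binds. RNA was pooled before sequencing and each condition gave 1 library, with 24939980 counts in the vehicle library, 26362446 in the IL-6 library and 30773001 in the OSM library. Of these, the text of the study describes the vehicle and OSM libraries and is silent on IL-6. The design text asks which genes OSM raised, and the same question is put here to the iron genes, with no library in which JAK1 was missing or blocked.

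Cells take up iron mostly as ferric iron bound to transferrin, which enters endosomes with the transferrin receptor. There a ferrireductase of the STEAP family reduces the ferric iron, and a divalent metal transporter moves the ferrous iron into the cytosol. Iron that is not used is stored in ferritin or leaves the cell through ferroportin, which hepcidin removes from the cell surface. The messages of several of these genes carry iron-responsive elements, stem-loops bound by the iron regulatory proteins when iron is scarce: in the 5′ UTR binding blocks translation, and in the 3′ UTR it stabilizes the message.

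Steap4 was near the limit of detection with vehicle and IL-6 and well expressed with OSM. The gene lies at chr5:8010457-8032213 on the plus strand of GRCm39, the build of all gene coordinates given here. Its counts were 18 with vehicle, 17 with IL-6 and 2849 with OSM, which is 0.226, 0.199 and 30.2 fpkm. The OSM library stood far above both others, which lay close together. Among protein-coding genes with counts, Steap4 ranked 11037 of 13733 by fpkm with vehicle, 11137 of 13706 with IL-6 and 1473 of 13799 with OSM. The OSM to vehicle ratio of scaled counts was 134 (95% interval 84.6 to 226), a log2 fold change of 7.07 (6.40 to 7.82). Intervals here cover counting error only. A condition was sequenced as 1 library, so there is no replicate check, no P-value is given, and each comparison is between libraries rather than conditions. Against IL-6 the ratio was 152 (94.7 to 261), whereas IL-6 against vehicle gave a log2 fold change of -0.18 (-1.23 to 0.86), an interval that includes 0. These comparisons share libraries, so their values are set side by side and not combined.

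A gene is called higher or lower below if every value in its interval is more than 2-fold away from equality. Of the 15537 genes compared between OSM and vehicle, 3.74% were called higher and 5.43% lower. Steap4 was the only one of the 10 iron and zinc genes called in that comparison (1 higher, 0 lower). With OSM against IL-6, 2 of the 10 were called higher, Steap4 and Hamp, and 0 lower, beside 4.24% and 5.42% of 15544 genes. With IL-6 against vehicle 0 of 9 were called in either direction, beside 1.77% and 1.74% of 15472 genes, and Hamp could not be compared because it had too few counts. The median log2 fold change of the 10 genes was 0.57 for OSM against vehicle, and that of all compared genes was 0.00459. Here 7 of the 10 intervals lay above 0 and 1 lay below, beside 33.4% above and 33.1% below among all compared genes. For IL-6 against vehicle 4 of 9 lay above 0 and 0 below, beside 19.6% and 19.1% of all compared genes. Counting intervals narrow with depth, and the 10 genes were not matched in depth to all compared genes. These shares are set side by side without a test.

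**Figure D1:**
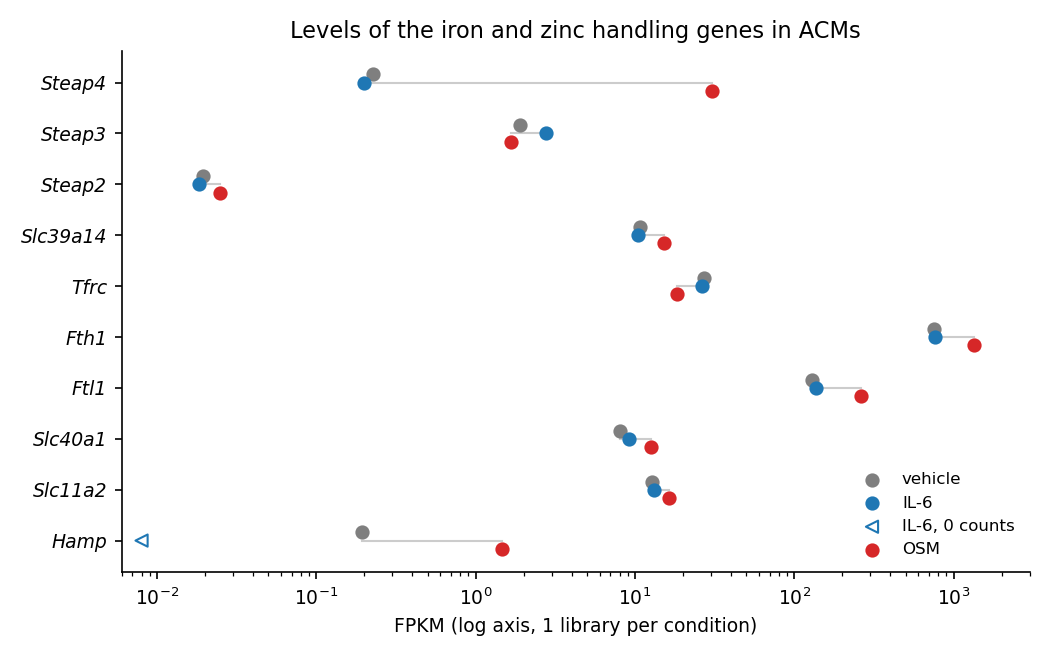
Level of each gene in the 3 libraries, as fpkm on a log axis, with vehicle in gray, IL-6 in blue and OSM in red; each point is 1 library, and the open triangle stands for a library with 0 counts. Steap4 moves from 0.226 fpkm with vehicle to 30.2 with OSM, while the ferritin chains Fth1 and Ftl1 are the most abundant of the genes in every library.

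Steap4 ranked 194 of all compared genes by log2 fold change of OSM against vehicle. By gain in share of the counts it ranked 288 of all genes. Of the 15037 compared genes with more than 3 counts in the vehicle library, it had the largest log2 fold change with OSM (rank 1). A further 193 genes had larger ratios, all of them with at most 3 vehicle counts, and 191 of these had 0. The remaining pair was Slc10a6, with 1, 4 and 509 counts in vehicle, IL-6 and OSM, and Egfr, with 2, 4 and 386. The genes closest to Steap4 in log2 fold change of OSM against vehicle and against IL-6, out of 14003 genes with more than 3 counts in each library, were Thbd, Inhbb, Kbtbd11, Sec1 and Timp1. This closeness is a distance over 2 differences that share the OSM library. Thbd, the endothelial anticoagulant receptor thrombomodulin, lay at a distance of 2.01 log2 units and had 145, 165 and 9450 counts. Timp1, an inhibitor of matrix metalloproteinases, lay at 3.11 with 203, 178 and 6739 counts. Both started from higher vehicle levels than Steap4, at 1.54 and 9.04 fpkm.

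Around the start of Steap4 the RefSeq promoter sequence holds a palindromic STAT motif and a C/EBP half-motif close together. They are shown because OSM receptors signal through STAT factors. Also, none of the other promoters available, which covered 7 of the 10 genes, held both. The motif letters are in capitals, with 10 bases to each side in lower case, 5′ to 3′ on the coding strand.
Steap4 STAT motif, chr5:8010346-8010374 (+): ggttgaactcTTCCCGGAAactttgcttc
Steap4 C/EBP half-motif, chr5:8010375-8010402 (+): acagctcctcTTGCGAAAtcaagcgggc
The coordinates are those of GRCm39, found by matching the RefSeq promoters, which come from a table of build GRCm38.p6, to that genome. The Steap4 motifs begin 116 and 87 bases before the RefSeq start. Both windows overlap an exon annotated in GENCODE M39, whose longest transcripts start further upstream.

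Promoters of 250 bases before to 50 after each start were available for 7 of the 10 genes, with 14 promoters in all. Slc39a14, Slc40a1 and Slc11a2 had no entry. On both strands, the STAT motif TTCNNNGAA was found in 3 of the 14, 1 each of Steap4, Steap2 and Hamp, beside 8.30% of all 32851 promoters. The C/EBP half-motif TTGCNNAA was in 3 of the 14, of Steap4, Steap3 and Fth1, beside 10.8% of all promoters. The metal response motif, TGCACNC or TGCGCNC, was in 2 of the 14, of Steap2 and Tfrc, beside 25.7%, and the 2 matches in the Tfrc promoter overlap each other. Steap2, with a STAT motif in 1 of its 3 promoters, had 6, 6 and 9 counts in vehicle, IL-6 and OSM. Hamp, with the motif in its only promoter, had 2, 0 and 18. A match of letters is a description and not a site of binding.

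The STEAP family did not move as a block. STEAP proteins reduce ferric iron and cupric copper at endosomal and plasma membranes. Steap1, which is not one of the 10 genes but completes the family, had 25, 14 and 117 counts with vehicle, IL-6 and OSM (0.718, 0.375 and 2.84 fpkm). It was called higher with OSM, by a log2 fold change of 1.99 (1.35 to 2.67) against vehicle and 2.92 (2.12 to 3.84) against IL-6. Relative to genes of its own length (the median of the 500 nearest) its interval against vehicle began at 0.90, short of the call. STEAP1 lacks the NADPH-binding domain of its relatives. Steap1 and Steap2 are neighbors on chromosome 5, 41.7 kb apart, and Steap4 lies 2.21 Mb beyond Steap1 on the same chromosome.

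Steap3 (chr1:120118487-120200435, minus strand), the main ferrireductase of maturing red cells, had 276 counts with vehicle, 430 with IL-6 and 285 with OSM, or 1.91, 2.78 and 1.67 fpkm. The highest level was with IL-6, and vehicle and OSM lay close together. Its log2 fold change was 0.54 (0.32 to 0.76) for IL-6 against vehicle, -0.20 (-0.44 to 0.05) for OSM against vehicle and -0.73 (-0.96 to -0.52) for OSM against IL-6, none of which was called. Steap2 (chr5:5714829-5744578, minus strand) was hardly detected, at 0.0195, 0.0182 and 0.0248 fpkm, and its interval for OSM against vehicle ran from -1.31 to 2.12, so that no difference was detectable at this depth. The balance within the family turned over: the Steap4 to Steap3 ratio of fpkm was 0.118 with vehicle, 0.0716 with IL-6 and 18.1 with OSM. The Steap4 to Steap1 ratio went from 0.314 with vehicle and 0.530 with IL-6 to 10.6 with OSM. Thus Steap4 was the most abundant STEAP message in the OSM library and Steap3 in the other two.

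Across the 11 listed metalloreductases, 10 were compared between OSM and vehicle, and 3 were called higher and 1 lower, with a median log2 fold change of 0.33. Beside Steap4 and Steap1 these included Cyb561, a transmembrane ascorbate-dependent reductase of secretory vesicles, with 562, 508 and 1706 counts and a log2 fold change of 1.36 against vehicle and 1.61 (1.46 to 1.75) against IL-6. Cybrd1, the duodenal ferric reductase, went the other way, with 10, 37 and 0 counts in vehicle, IL-6 and OSM. The upper interval limit of its OSM to vehicle ratio was 0.377, and that of OSM to IL-6 was 0.0950. Cybrd1 is the lowest value of the list also at that limit, so the median does not depend on it. Sdr39u1 and Cyb561a3, the most abundant uncalled genes of the list per length with vehicle, had log2 fold changes of 0.31 and 0.28. Sdr39u1 is not known as a metalloreductase, and without it the list had 3 of 9 compared genes called higher, 1 lower and a median of 0.34.

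Of the uptake genes, Tfrc was the only one of the 10 genes whose interval lay below 0 with OSM against vehicle. Tfrc (chr16:32427738-32451612, plus strand) encodes transferrin receptor 1. It had 4216 counts with vehicle, 4424 with IL-6 and 3399 with OSM, or 26.9, 26.4 and 18.4 fpkm. Vehicle and IL-6 were alike, and OSM was the lowest. The log2 fold change was -0.55 (-0.62 to -0.49) for OSM against vehicle, a ratio of 0.682, and -0.52 (-0.59 to -0.46) against IL-6, both short of the call. For IL-6 against vehicle it was -0.03 (-0.09 to 0.03).

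Slc11a2 (chr15:100285779-100322953, minus strand), the divalent metal transporter DMT1 that carries ferrous iron out of endosomes, had 2061, 2264 and 3094 counts (12.8, 13.1 and 16.3 fpkm). OSM was the highest, at a log2 fold change of 0.34 (0.26 to 0.43) against vehicle, which was not called. Slc39a14, or ZIP14 (chr14:70540918-70588874, minus strand), imports zinc, manganese and iron that is not bound to transferrin, and is known in liver as a gene raised in inflammation. It had 2881, 2969 and 4761 counts (10.8, 10.4 and 15.1 fpkm). Its log2 fold change was 0.48 (0.42 to 0.55) for OSM against vehicle and -0.06 (-0.13 to 0.02) for IL-6 against vehicle, and neither was called. With vehicle the 3 uptake genes were therefore within one order of magnitude per length, Tfrc first, and with OSM they drew together between 15.1 and 18.4 fpkm.

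Of the 12 genes listed for iron uptake, 8 were compared and 0 were called in either direction, with a median log2 fold change of 0.06. Tfr2, the second transferrin receptor, and the ferritin receptors Scara5 and Timd2 had 0 counts in all libraries, as did Lrp2. A count of 0 allows up to 0.120 CPM with vehicle, 0.114 with IL-6 and 0.0975 with OSM (3 counts). Slc39a8, or ZIP8, the closest relative of ZIP14, had only 12, 17 and 18 counts.

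**Figure D2:**
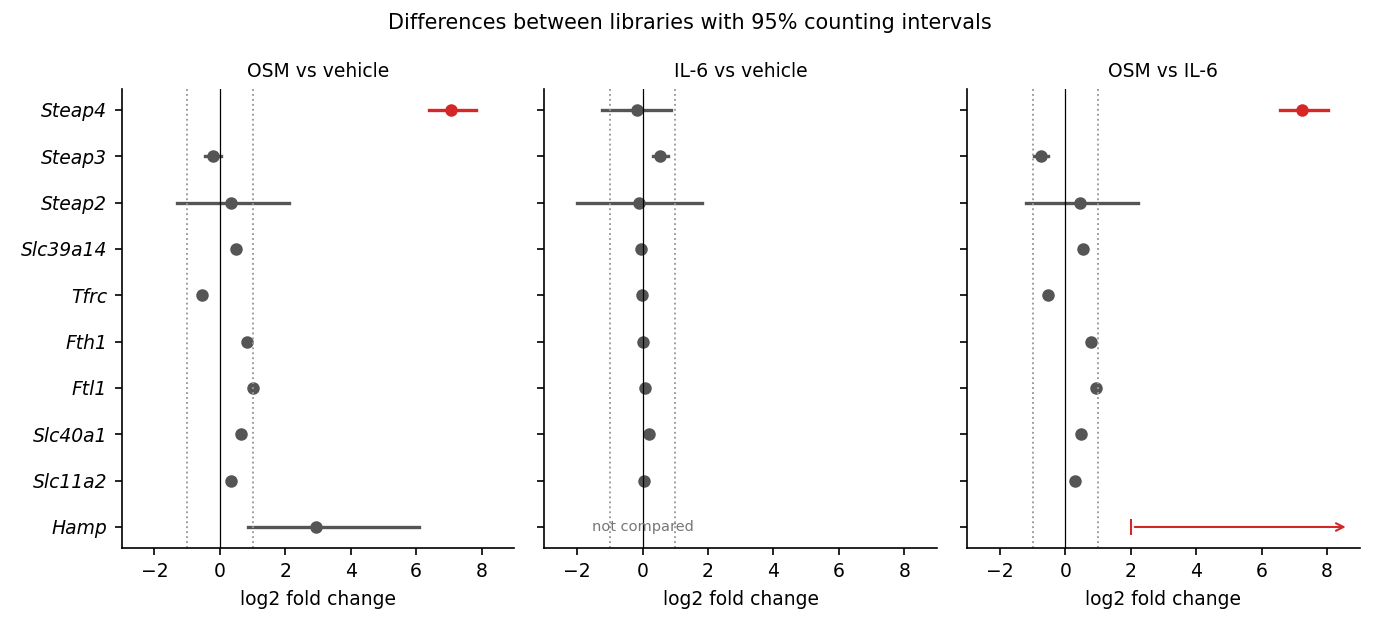
Log2 fold change of the 10 genes for OSM against vehicle, IL-6 against vehicle and OSM against IL-6, with 95% counting intervals as bars (1 library per condition); red marks genes called higher, the dotted lines mark 2-fold, and the arrow is a lower limit where IL-6 had 0 counts. Steap4 at 7.07 and 7.25 is far outside the dotted lines in both comparisons with OSM, and with IL-6 against vehicle all points lie between them.

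Ferritin messages were abundant in all 3 libraries and more so with OSM. Fth1 (chr19:9957962-9962462, plus strand) encodes the heavy chain, which oxidizes iron as it enters the shell. It had 66235 counts with vehicle, 72151 with IL-6 and 138612 with OSM, or 755, 768 and 1338 fpkm, and ranked 37, 35 and 29 by fpkm among protein-coding genes. Ftl1 (chr7:45107368-45109308, minus strand), the light chain that aids mineral formation, had 4363, 4959 and 10469 counts, or 129, 137 and 262 fpkm. For both chains OSM was the highest and IL-6 was close to vehicle.

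The log2 fold change of OSM against vehicle was 0.82 (0.81 to 0.84) for Fth1 and 1.02 (0.97 to 1.07) for Ftl1. Fth1 was 1.77-fold higher. Ftl1 was 2.03-fold higher, with an interval that includes 2-fold, so it was not called. With upper-quartile factors in place of TMM it was called, at 1.05. Fth1 and Ftl1 together took 0.283% of all counts with vehicle (95% Clopper-Pearson interval 0.281 to 0.285), 0.292% with IL-6 (0.290 to 0.295) and 0.484% with OSM (0.482 to 0.487). The ratio of Fth1 to Ftl1 by fpkm was 5.86, 5.62 and 5.11. Its level rests on gene lengths of 3469 and 1340 bases in the deposited annotation. The canonical GENCODE M39 transcripts have 929 and 969 bases, so the level is not the balance of the messages. Between vehicle and OSM the ratio changed by -0.20 on the log2 scale (-0.25 to -0.14), which does not depend on length. Reads of ferritin genes can also match processed pseudogenes, and the 8 listed ferritin pseudogenes held 9, 19 and 14 counts in sum. Gm10252, which overlaps Ftl1 on the other strand, had 29, 14 and 22 counts. Whether the counting used the strand is not stated, and at these numbers both are small beside Ftl1.

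Among 8 genes of iron storage and delivery, 7 were compared and 0 were called, with a median log2 fold change of 0.62. Pcbp1, a chaperone that delivers iron to ferritin, had 5072, 5527 and 9240 counts and a log2 fold change of 0.62 (0.57 to 0.67) for OSM against vehicle. Ncoa4, the receptor that carries ferritin to autophagy, had 1337, 1423 and 979 counts and a value of -0.69 (-0.81 to -0.57). Pcbp1 and Ncoa4 were named after their values were seen.

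Slc40a1 (chr1:45947228-45965683, minus strand) encodes ferroportin, the only known exporter of iron from mammalian cells. It had 1825 counts with vehicle, 2221 with IL-6 and 3406 with OSM, or 8.02, 9.11 and 12.7 fpkm. The 3 libraries were in the order vehicle, IL-6, OSM. The log2 fold change against vehicle was 0.18 (0.09 to 0.27) with IL-6 and 0.66 (0.58 to 0.74) with OSM. Neither interval included 0, but between IL-6 and vehicle 19.6% of all compared genes also had an interval above 0. Slc40a1 was called in neither comparison. Set against the receptor, the Slc40a1 to Tfrc ratio of fpkm was 0.298 with vehicle, 0.345 with IL-6 and 0.689 with OSM, a log2 change of 1.21 (1.11 to 1.32) for OSM against vehicle. The Fth1 to Tfrc ratio was 28.0, 29.1 and 72.7, a log2 change of 1.38 (1.31 to 1.44). Ratios within a library do not depend on the scaling between libraries, and they show unequal change, not which gene changed. Their levels depend on the gene lengths of the deposited annotation, and their changes between libraries do not.

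Ferroportin is also a macrophage gene, and Cd68, a lysosomal protein used as a macrophage marker, was called higher with OSM, at 382, 448 and 1419 counts. It made up most of the summed level of 11 macrophage markers, which was 23.7, 24.0 and 54.5 CPM with vehicle, IL-6 and OSM. Lyz2 had 13, 4 and 31 counts and was called higher against IL-6 but not against vehicle. Ptprc, C1qa, C1qb, Fcgr1 and Cd163 had 0 counts in all libraries, and Csf1r had 187, 166 and 209. Relative to genes of their own length Cd68 was still called against vehicle but not against IL-6, and Lyz2 was not called. The part of cells with these markers in the Slc40a1 values was not tested. Other transcripts of iron export were low or fell short of the call: of 6 listed genes 5 were compared and 0 were called. Cp, the ferroxidase ceruloplasmin, had 1072, 1112 and 754 counts and a log2 fold change of -0.75 (-0.89 to -0.61).

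Hamp (chr7:30641793-30643457, minus strand) was present at trace level. It had 2 counts with vehicle, 0 with IL-6 and 18 with OSM, or 0.193, 0 and 1.47 fpkm, and only the OSM library was above the floor of 3 counts. The OSM to vehicle ratio was 7.61, but with 2 counts the interval ran from 1.82 to 67.6 and the gene was not called. Against IL-6 it was called, with an interval that began at 3.99-fold. Taken against the floor of 3 counts in the IL-6 library, the 18 counts stood 5.44-fold higher after scaling. Hamp2, the second mouse hepcidin gene, had 0, 0 and 2 counts. Hamp is best known from hepatocytes. Of 9 hepatocyte markers, 6 had 0 counts in the OSM library, Alb had 0 in every library, Tat had 0, 0 and 10, Apoa2 had 4, 18 and 16, and the list summed to 0.201, 0.683 and 0.975 CPM, whose part in the Hamp counts was not tested. Tat was called higher against IL-6, like Hamp. The antisense gene Gm44662 spans the whole of Hamp and had 0 counts in all libraries.

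Of 20 genes of the hepcidin pathway, 16 were compared between OSM and vehicle and 1 was called higher, Bmp2, a ligand that turns on hepcidin in liver, with 7, 6 and 67 counts and a log2 fold change of 3.02 (1.90 to 4.39). Against IL-6 4 were called higher: Hamp, Bmp2, the signal transducer Smad1 and its target Id1. Smad1 had 594, 578 and 1479 counts. Id1 had 76, 30 and 216, with IL-6 the lowest and OSM the highest. Hjv, the BMP co-receptor hemojuvelin, was among the more abundant genes of the list at 109, 114 and 104 fpkm and had a log2 fold change of -0.07 (-0.12 to -0.02). Smad4, the shared partner of these SMADs, was at -0.24. Erfe, the erythroid hormone that lowers hepcidin, had 0 counts in all libraries.

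Iron-responsive elements link Tfrc, the ferritins and Slc40a1, whose messages had unlike directions with OSM. They were searched for in the UTRs of GENCODE M39 transcripts as an unpaired C, 5 bases, the loop CAGTGN and 5 bases that pair back, with G-U pairs allowed. Matches were found in 4 of the 10 genes, 7 in all. Over 21575 protein-coding genes, 0.218% had a match in a 5′ UTR and 0.756% in a 3′ UTR of any transcript. The loop is in capitals, with the stem and 5 bases to each side in lower case, on the coding strand of GRCm39 and in DNA letters.
Fth1 5′ UTR, chr19:9960097-9960123 (+): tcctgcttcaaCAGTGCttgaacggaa
Ftl1 5′ UTR, chr7:45109204-45109230 (-): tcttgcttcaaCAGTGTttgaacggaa
Slc40a1 5′ UTR, chr1:45964626-45964652 (-): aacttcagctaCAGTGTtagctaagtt
Tfrc 3′ UTR a, chr16:32450038-32450064 (+): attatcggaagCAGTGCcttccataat
Tfrc 3′ UTR b, chr16:32450417-32450443 (+): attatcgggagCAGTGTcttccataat
Tfrc 3′ UTR c, chr16:32450482-32450508 (+): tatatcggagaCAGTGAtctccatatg
Tfrc 3′ UTR d, chr16:32450529-32450555 (+): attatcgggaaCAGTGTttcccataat
The ferritin elements begin 132 and 170 bases before the start codon of the canonical transcript and that of Slc40a1 begins 224 bases before, and the 4 Tfrc elements begin between 889 and 1380 bases after the stop codon.

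**Figure D3:**
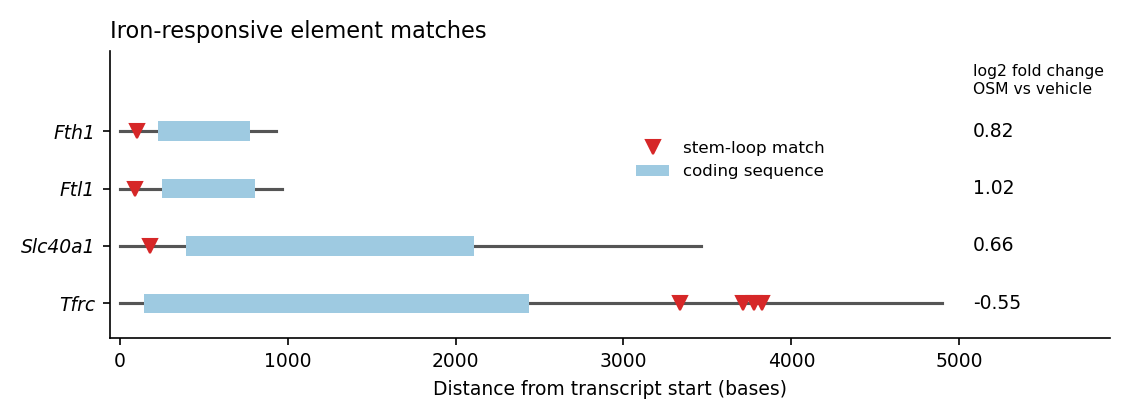
Canonical GENCODE M39 transcripts of the 4 genes with a match, drawn to scale in bases from the transcript start, with the coding sequence as a blue bar and each stem-loop match as a red triangle; the log2 fold change of OSM against vehicle stands at the right. The genes with a match before the coding sequence are at 0.82, 1.02 and 0.66, and Tfrc, with 4 matches after it, is at -0.55.

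Other genes known to carry such elements had values on both sides of 0. The part of the elements in these values was not tested. Of 6 genes listed for a 5′ element, 5 were compared, and beside the 3 above Epas1, the hypoxia factor HIF-2α, was at -0.97 (-1.05 to -0.89). Of the 4 genes listed for a 3′ element, Slc11a2 was at 0.34 and Cdc42bpa, a kinase of the cytoskeleton, at -0.67, and the search above found no match of these letters in Slc11a2. None of the genes in these lists was called (0 higher and 0 lower). Of the iron regulatory proteins themselves, Aco1 had 1010, 1094 and 1212 counts with a log2 fold change of 0.02 (-0.10 to 0.14). Ireb2 had 1536, 1671 and 1244 counts and a value of -0.55 (-0.66 to -0.44). Zc3h12a, an endonuclease known to degrade the Tfrc message, was the 1 of 5 listed regulators called higher, with 73, 76 and 276 counts and 1.68 (1.30 to 2.07). Rc3h1, another listed regulator, had 1928, 1888 and 1328 counts and a value of -0.78 (-0.88 to -0.68). Fbxl5, the last of the 5, was at -0.07 (-0.16 to 0.02). The part of these regulators in the Tfrc values was not tested.

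Gene length moved with the fold changes. In 20 bins of protein-coding genes by length, the median log2 fold change of OSM against vehicle went from 0.55 in the shortest bin to -0.81 in the longest. Each gene was therefore also set against the 500 compared protein-coding genes nearest in length. That median was 0.47 for Ftl1, 0.13 for Fth1, -0.12 for Tfrc, -0.36 for Slc40a1 and -0.41 for Slc39a14. Relative to genes of their own length, Slc40a1 stood at 1.02, Slc39a14 at 0.89, Fth1 at 0.69, Ftl1 at 0.55, Slc11a2 at 0.40 and Tfrc at -0.43. By these lengths the order of the genes changed, with Slc40a1 and Slc39a14 ahead of the ferritins, while Steap4 stood at 6.90 and each of these genes kept its sign. The lengths are those of the deposited annotation, 9000 bases for Slc40a1, 10550 for Slc39a14, 3469 for Fth1 and 1340 for Ftl1. Their canonical GENCODE M39 transcripts are shorter, at 3463, 5197, 929 and 969 bases. The order by transcript length was not tested. Of other genes named above, Pcbp1 stood at 0.23, Ncoa4 at -0.30, Cp at -0.33 and Ireb2 at -0.145 relative to genes of their own length. These are smaller differences than the values given above. Hjv at -0.41 and Smad4 at -0.36 instead showed larger ones. The part of length in these results was not tested.

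**Figure D4:**
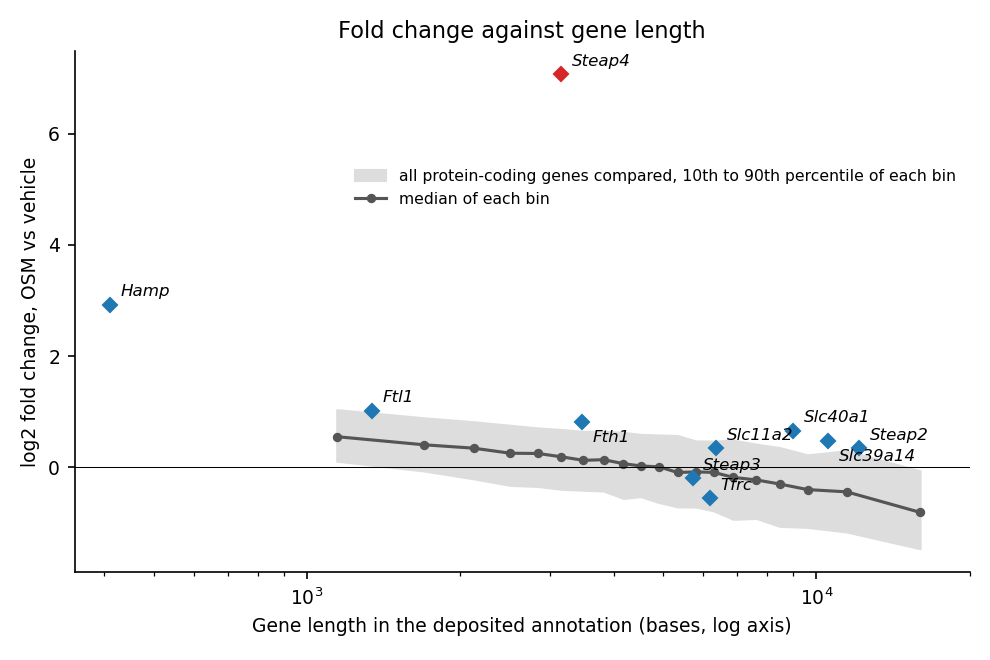
Log2 fold change of OSM against vehicle against gene length in bases (log axis) for the 10 genes as diamonds, red for the called Steap4 and blue for the rest, over the median (line) and the 10th to 90th percentile (gray) of 20 length bins of protein-coding genes. The median falls from 0.55 to -0.81 with length. Beside Steap4, Slc40a1 at 0.66, Slc39a14 at 0.48 and Fth1 at 0.82 lie above the gray band, as does Steap2 at 0.34, which had few counts. Ftl1 at 1.02 lies near the upper edge of the band.

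Zinc and copper genes listed in the same way showed a few large differences among many small ones. Metallothioneins are small proteins that bind zinc and copper. All 3 compared ones, Mt1, Mt2 and Mt3, were called higher with OSM against vehicle, with a median log2 fold change of 1.98, and Mt4 had 0 counts. With Mtf1, the other compared gene of that list, 3 of 4 were called and the median was 1.72. Mt1 had 12390, 14706 and 40244 counts with vehicle, IL-6 and OSM, a log2 fold change of 1.46 (1.43 to 1.49). Mt2 had 183, 255 and 854 counts and 1.98 (1.75 to 2.22). Mt3 had 6, 24 and 35 and was called against vehicle but not against IL-6. Mtf1, the zinc sensor that drives these genes, was at -0.34 (-0.46 to -0.22). Relative to genes of their own length Mt1 stood at 0.97, Mt2 at 1.46 and Mt3 at 1.81, and only Mt2 was still called against vehicle, while against IL-6 neither Mt1 nor Mt2 was.

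Of the zinc importers of the Slc39a family, 11 of 14 were compared and 1 was called higher, Slc39a1, or ZIP1, at the plasma membrane. It had 2866, 3340 and 7222 counts, or 47.9, 52.1 and 102 fpkm, and a log2 fold change of 1.09 (1.03 to 1.16) against vehicle. Against IL-6 it was at 0.97 (0.91 to 1.03) and was not called. Per length, ZIP1 was more abundant than ZIP14 in each library. Relative to genes of its own length ZIP1 stood at 0.85, short of the call and beside 0.89 for ZIP14. Of the Slc30a zinc exporters 8 were compared and 0 were called, with a median of 0.06: Slc30a9 was at -0.15 and Slc30a1, the exporter at the plasma membrane, at -0.22. Of 12 compared copper genes 1 was called, Atp7a, a copper pump, which was lower, with 194, 153 and 23 counts and -3.32 (-4.01 to -2.69). Slc25a3 and Sod1, the most abundant uncalled copper genes, were at 0.21 and 0.58.

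Heme and mitochondrial iron genes gave 1 call between them. Of 16 compared genes of heme synthesis and breakdown, 0 were called against vehicle and 1 against IL-6, with a median of 0.36 against vehicle. Hmox1, the inducible heme oxygenase that frees iron from heme, had 21824, 22097 and 52131 counts, or 493, 466 and 997 fpkm. Its log2 fold change was 1.01 (0.99 to 1.04) against vehicle, just short of the call, and 1.10 (1.07 to 1.12) against IL-6, which was called, but not relative to genes of its own length, at 0.69. Tmem14c, a mitochondrial porphyrin carrier, was at 0.47. Of 17 compared genes of mitochondrial iron and iron-sulfur clusters 0 were called, with a median of 0.27, among them the chaperone Hspa9 at -0.14 and the scaffold Iscu at 0.43. Among 8 scavengers of iron and heme, 3 were compared and Lcn2 was called higher. Lcn2, or lipocalin 2, binds bacterial iron carriers and is an acute-phase protein, and had 95, 82 and 651 counts with 2.54 (2.22 to 2.86).

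**Figure D5:**
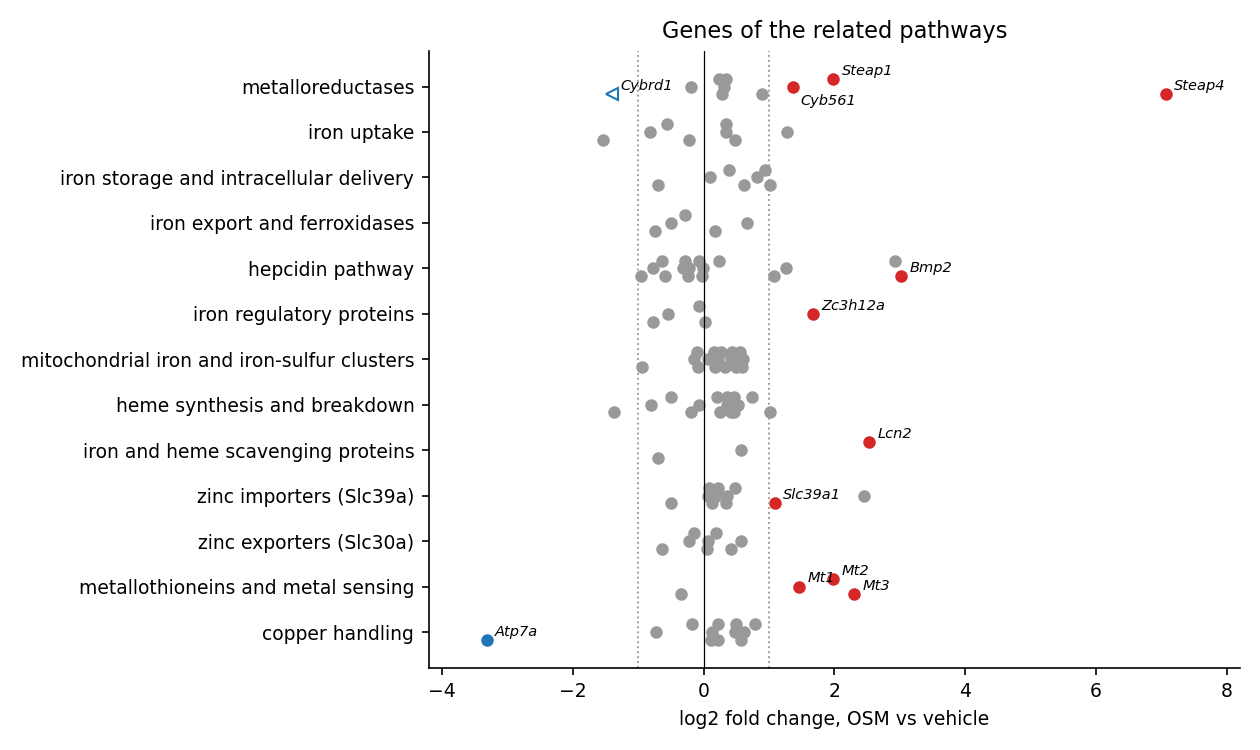
Log2 fold change of OSM against vehicle for the compared genes of 13 lists of iron, heme, zinc and copper genes; each dot is 1 gene, red was called higher, blue lower, gray not called, the open triangle is the upper interval limit of a gene with 0 counts with OSM, and dotted lines mark 2-fold. Steap4 at 7.07 lies apart from all others, and called genes stand alone in their lists except among the metalloreductases and metallothioneins.

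The libraries carried the markers of the labelled cell type. All 10 cardiomyocyte markers were above 1 fpkm in each library and summed to 36370 CPM with vehicle, 37530 with IL-6 and 43830 with OSM, with Ryr2 and Ttn, both very long genes, called lower with OSM. Fibroblast markers summed to 5.73 to 6.63 CPM, endothelial to 40.3 to 43.5, smooth muscle and pericyte to 36.5 to 44.4 and neutrophil to 0.0650 to 0.241. With OSM against IL-6, the fibroblast marker Col1a2 was called lower and the smooth muscle marker Cnn1 higher. Adipocyte markers, of interest because Steap4 is well known from fat, summed to 5.01, 4.70 and 6.53 CPM, nearly all of it Fabp4, which endothelial cells also express. Erythroid markers, of interest for Steap3 and Tfrc, summed to 0.321, 0.948 and 1.01 CPM, and Hbb-bt and Slc4a1 had 0 counts in all libraries. In bulk RNA a larger share of cells of a type and more RNA per cell cannot be told apart.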

How the data were processed

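RNA from cultured ACMs was pooled and sequenced as paired reads, with 1 library each for vehicle, IL-6 and OSM. Counts were made by the authors: the deposited counts are whole numbers per gene without normalization, on GRCm39 (mm39). The submitters' processing notes name fastp, HISAT2 2.2.1, featureCounts 2.0.6 and edgeR 4.0.16. The study's methods give other versions of the last pair. Whether counting used the strand is not given in the sources used here. The deposited fpkm values, also from the authors, scale these counts by gene length and library and were used for levels only.

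TMM factors came from edgeR 4.0.16 in R 4.3.3, separately for each comparison. Compared genes had 10 or more counts in both libraries together, and were described by the ratio of scaled counts with a 95% Clopper-Pearson interval (scipy 1.17.1), and called where the interval excluded all ratios within 2-fold. A count of 0 was replaced by a floor of 3 counts for bounds. Since reads carry no molecular identifiers, intervals and floors cover counting error only. The calling rule was tested on simulated data that held counting error alone, so that test cannot speak to variation between cultures. DESeq2 1.42.0 size factors were one of 13 alternatives. The genes, lists and rules were chosen with earlier results of these data known. Named genes were the 10 genes, Steap1, and from the lists called genes (up to 4) and up to 2 uncalled genes with the highest vehicle fpkm. This rule was not applied to the lists of cell type markers and of iron-responsive elements. Pcbp1, Ncoa4, Ireb2, Rc3h1, Epas1, Cdc42bpa, Slc39a8, genes at 0 counts and single markers were named after their values were seen. All columns of per-sample values matched a label. Promoters were from RefSeq (GRCm38.p6) and transcripts from GENCODE M39. Some items withheld for evaluation are not reported here.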

Additional observations from a re-analysis of the deposited data

How the results depend on the processing

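No paired analysis was possible because each condition had 1 library, and for the same reason no library could be left out. Of the 13 alternatives only the other scalings and the length correction can move a log2 fold change, and under these none of the 10 genes changed sign. Steap4 was called with OSM in each, between 7.003 and 7.096 against vehicle over the scalings. The count of the 10 genes called higher with OSM against vehicle was 2 with upper-quartile factors, where Ftl1 was called, 4 with a 1.5-fold limit, which added Fth1, Ftl1 and Hamp, and 3 by point estimate. Against IL-6 it was 4 with the 1.5-fold limit and 1 with at least 50 counts, a 4-fold limit, or an assumed coefficient of variation of 0.2 or 0.4, where only Steap4 was left. Counts over all genes, given as higher and lower for OSM against vehicle, then IL-6 against vehicle, then OSM against IL-6, followed the threshold. They were 382 and 502, 31 and 25, 386 and 479 with at least 50 counts; 1357 and 1850, 457 and 445, 1365 and 1854 beyond 1.5-fold; 127 and 129, 34 and 62, 151 and 124 beyond 4-fold. By point estimate they were 1565 and 2034, 1033 and 1025, 1557 and 1981. With an assumed coefficient of variation of 0.2 they were 230 and 307, 70 and 101, 275 and 312, and with 0.4 they were 98 and 124, 27 and 44, 128 and 107. With 99% intervals, IL-6 against vehicle gave 103 and 134, and 437 were higher with OSM against IL-6. Depth limits Steap2 and Hamp, which had under 20 counts in every library. It also limits the baseline of Steap4, at 18 counts with vehicle and 17 with IL-6.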
